A study of Drosophila sechellia x Drosophila simulans with 8 samples.

Results

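Gene expression was compared between oenocytes and fat body of adult female hybrids between Drosophila sechellia and Drosophila simulans. Female oenocytes and female fat body had 2 libraries each, which makes 4 of the 8 libraries of the series, and they were chosen by their labelled tissue and sex. The other 4 libraries are oenocytes and fat body of male hybrids. They share in the estimate of spread and are used for a comparison of the sexes at the end. All flies were F1 hybrids aged 10 days, so that every cell carried a chromosome set of each species, and they were kept in cycles of 12 hours of light and 12 hours of darkness. Both tissues were taken from the dorsal abdominal wall, at even spacing around the day. The labels leave unsaid which species was the mother, how many flies went into a library or whether both tissues of a replicate number came from the same flies. Replicates are therefore libraries that are labelled as separate, and the p-values measure the spread between these libraries, which may be technical.

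Oenocytes are large abdominal cells beneath the cuticle that make the long-chain hydrocarbons of the fly's surface, which keep in water and serve as contact pheromones. Their hydrocarbons come from fatty acids that are desaturated, elongated, reduced and then stripped of a carbon. Fat body is the insect counterpart of liver and adipose tissue. It stores fat and sugar, makes much of the protein of the blood, contributes yolk protein in females, and makes antimicrobial peptides when the fly is infected. The roles given below are those known for the D. melanogaster genes of the same symbol.

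The deposited transcript counts are estimates, since reads that match several transcripts are shared out between them. They summed to 25588172 and 34474092 per library in female oenocytes, against 14237412 and 21421502 in female fat body. Transcripts were tested at their summed counts of both species' copies, and 14279 transcripts passed the filter on low counts. Log2 CPM of these transcripts correlated at r = 0.952 between the female oenocyte libraries and at r = 0.957 between the female fat body libraries. The correlations between a library of each tissue were 0.811 to 0.835. Only 427 of 14176 genes carry a symbol, and the files do not pair the other gene numbers with names, so most of what differed cannot be described by name. Transcripts could be paired with 239 of the 427 symbols, and 246 transcripts of 225 such genes were tested.

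Transcripts that differed between the tissues were about as many in each direction. In edgeR's quasi-likelihood test with Benjamini-Hochberg adjustment, 3713 of 14279 transcripts (26%) had an adjusted p under 0.05. Of these, 1842 (12.9%) were higher in female oenocytes and 1871 (13.1%) were lower. Without 1 of the 4 female libraries, 2654 to 3020 transcripts were called. Those called higher had a median log2 fold change of 1.71, and those called lower had a median of -1.93, while the median over all transcripts tested was 0.02. At a log2 fold change of at least 3 there were 449 transcripts higher in oenocytes and 348 lower (5.58% together), and at 5 there were 193 higher and 96 lower. With limma on log2(TPM + 1), where TPM is the length-scaled abundance, the split was uneven: 3015 transcripts were higher in oenocytes and 1913 lower, and the median of all transcripts stood at 0.23. That fit differs from the edgeR one in test, unit and filter, with 10774 transcripts tested. Among the 246 transcripts with a symbol, 42 were higher, 56 were lower and 148 were not called.

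**Figure D1:**
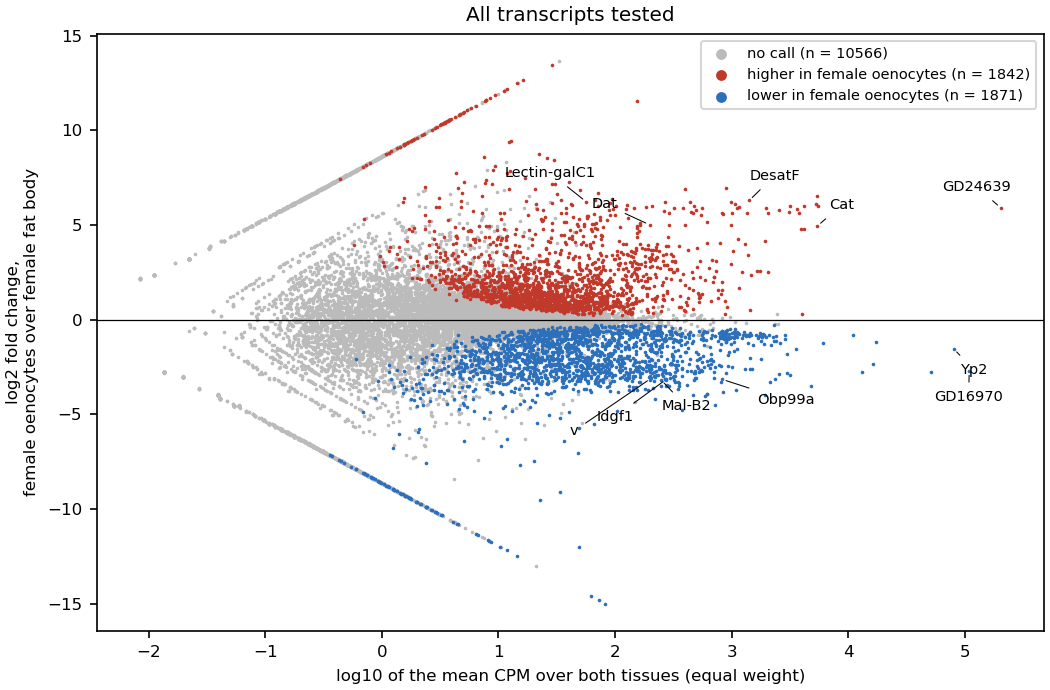
Each point is a transcript, with the log10 of its mean CPM over both tissues on the horizontal axis and the log2 fold change of female oenocytes over female fat body on the vertical axis; 398 transcripts without a count in the 4 female libraries are not drawn. The 1842 transcripts called higher (red) and the 1871 called lower (blue) span the range of abundance, and the straight outer edges are transcripts at 0 in a tissue, whose fitted fold changes are no measured ratio.

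A single transcript dominated the oenocyte libraries. GD24639, an X-linked gene with no name in the files, took 34.3% and 35.7% of all estimated counts in female oenocytes. Its level was 246154 and 256515 TPM in female oenocytes, against 3581 and 3804 TPM in female fat body, and its log2 fold change was 5.91 ± 0.174 (SE; edgeR, adjusted p = 4.45e-05). GD20753 on chromosome arm 3R was another of the most abundant transcripts of oenocytes, at 10041 and 10174 TPM in female oenocytes and 126 and 148 TPM in female fat body. For both, the oenocyte libraries lay above both fat body libraries, while 63.3% of all transcripts tested did not overlap between the tissues. Both were picked for their abundance in oenocytes. Fat body was led by 3 X-linked transcripts. GD16970 had 25144 and 26177 TPM in female oenocytes, against 147395 and 148042 TPM in female fat body (log2 fold change -2.71 ± 0.302 SE; edgeR, adjusted p = 0.00298). GD28649 averaged 13057 ± 411 TPM in female oenocytes and 77206 ± 27.2 TPM in female fat body (SD, n = 2 each). The third was Yp2. The lists of the 10 most abundant transcripts of the tissues shared 4 members, and those of the 100 most abundant shared 64.

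Yp2 encodes a yolk protein, which fat body secretes into the blood for uptake by the ovary. It was the second most abundant transcript in both tissues, at 39294 and 40221 TPM in female oenocytes and 101865 and 100252 TPM in female fat body. Its log2 fold change was -1.54 ± 0.274 (SE; edgeR, adjusted p = 0.0152). The call depended on every female library: with any 1 of the 4 left out, the log2 fold change stayed below 0 and the adjusted p was 0.0626 to 0.0792. As these are bulk samples, fewer cells of a type and less RNA per cell cannot be told apart. The part of fat body cells in the oenocyte libraries was not tested. Of 13 fat body markers, only Yp2 and Fbp2 have a symbol in the files, and Fbp2 was at 0 to 0.25 TPM in the 4 libraries.

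The desaturases, which place the double bonds of cuticular hydrocarbons, were far higher in oenocytes for 2 of the 3 genes with a symbol, DesatF being a marker of the labelled cell type. DesatF, the desaturase that adds the second double bond of female dienes, had 2809 and 2785 CPM in female oenocytes, against 36.6 and 34.4 CPM in female fat body. This is a 78.9-fold difference (log2 fold change 6.30 ± 0.0921 SE; edgeR, adjusted p = 2.88e-05). Desat2, a desaturase of shorter fatty acids, had 2213 and 2184 CPM in female oenocytes, against 34.1 and 38.4 CPM in female fat body, a 60.6-fold difference (log2 fold change 5.92 ± 0.0899 SE; edgeR, adjusted p = 2.88e-05). For both genes the oenocyte libraries lay far above both fat body libraries, while 63.3% of all transcripts tested did not overlap between the tissues. A second transcript of Desat2 had 3.48 and 1.51 CPM in female oenocytes and no count in female fat body, and it was not called (edgeR, adjusted p = 0.0503).

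Desat1, which makes the first double bond for hydrocarbons and for membrane and storage lipid alike, had no transcript that could be paired with it and was followed in the gene totals. It had 6648 and 6242 TPM in female oenocytes, against 9292 and 8822 TPM in female fat body. In the reads aligned per gene, a second quantification of the same libraries, its log2 fold change was -0.44 ± 0.215 (SE; edgeR, adjusted p = 0.173). The difference was not called, so that of the 3 desaturases with a symbol, DesatF and Desat2 were strongly higher in oenocytes and Desat1 was abundant in both tissues. Of 12 oenocyte markers, DesatF and Desat1 have a symbol in the files. The lists of elongases, fatty acyl-CoA reductases, fatty acid synthesis enzymes and lipoproteins matched no symbol, and those genes were not analysed here, eloF among them.

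Enzymes against reactive oxygen were higher in oenocytes, in 4 of 4 transcripts tested, with a median log2 fold change of 2.66 beside 0.02 over all transcripts. The share called higher over all transcripts was 12.9%. This short list was put together after the data were seen, so its count describes these 4 transcripts alone. Cat, the catalase that destroys hydrogen peroxide in peroxisomes, had 10416 and 10714 CPM in female oenocytes, against 319 and 362 CPM in female fat body. At 7715 ± 26.6 TPM in female oenocytes and 219 ± 8.47 TPM in female fat body (SD, n = 2 each), it was among the 10 most abundant transcripts of oenocytes. Its log2 fold change was 4.96 ± 0.104 (SE; edgeR, adjusted p = 3.18e-05). Sod, a superoxide dismutase, had 1795 and 1695 CPM in female oenocytes and 218 and 239 CPM in female fat body (log2 fold change 2.93 ± 0.0746 SE; edgeR, adjusted p = 3.86e-05). Trx-2, a thioredoxin, had 260 and 245 CPM in female oenocytes and 49.3 and 46.8 CPM in female fat body (log2 fold change 2.40; edgeR, adjusted p = 4.20e-05). GstD1, a glutathione S-transferase, differed least, with 115 and 113 CPM in female oenocytes and 42.9 and 50.8 CPM in female fat body (log2 fold change 1.28; edgeR, adjusted p = 0.000817). For each of the 4, the lowest oenocyte library lay above the highest fat body library, as did 1 tissue or the other for 63.3% of all transcripts tested.

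The oxidative branch of the pentose phosphate pathway, which supplies NADPH, was higher in oenocytes at both of its dehydrogenases. Pgd, 6-phosphogluconate dehydrogenase, had 1268 and 1071 CPM in female oenocytes, against 583 and 592 CPM in female fat body (log2 fold change 0.99 ± 0.102 SE; edgeR, adjusted p = 0.00221). Zw, glucose-6-phosphate dehydrogenase, was measured in the aligned reads per gene. These numbered 2888527 to 4642417 in the 4 female libraries, and 2136 of 7415 genes (28.8%) were called, 992 higher (13.4%) and 1144 lower (15.4%). It had 16246 and 4209 reads in female oenocytes and 475 and 657 reads in female fat body (log2 fold change 3.56 ± 0.446 SE; edgeR, adjusted p = 0.00129). Without oenocyte replicate 1 or 2 the log2 fold change was 2.76 and 4.08, and it stayed called. The oenocyte libraries differed from each other in these reads, but in the gene totals they were close, at 735 and 697 TPM in female oenocytes against 118 and 109 TPM in female fat body.

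Of 12 transcripts of heat shock proteins and chaperones tested, 6 were called higher in oenocytes and none lower, with a median log2 fold change of 0.65. Over all transcripts, 12.9% were higher and 13.1% lower, and this list was made after the data were seen. The 6 were Hsp83, Hop, DnaJ-1, ERp60, T-cp1 and Hsc70-4, while the inducible Hsp70 genes, Hsp68 and Cdc37 were not called. Hsp83, the fly Hsp90, had 3039 and 3011 CPM in female oenocytes, against 508 and 508 CPM in female fat body (log2 fold change 2.57 ± 0.058 SE; edgeR, adjusted p = 3.23e-05). Its co-chaperone Hop, which links it to Hsp70, had 214 and 255 CPM in female oenocytes and 51.8 and 56.4 CPM in female fat body. DnaJ-1, an Hsp40 partner of Hsp70, had 237 and 271 CPM in female oenocytes and 61.4 and 62.2 CPM in female fat body. Both rose, with log2 fold changes of 2.12 for Hop and 2.04 for DnaJ-1 (edgeR, adjusted p = 0.000775 and 0.000121). ERp60, a disulfide isomerase of the endoplasmic reticulum, had 495 and 494 CPM in female oenocytes and 113 and 112 CPM in female fat body (log2 fold change 2.14 ± 0.0509 SE; edgeR, adjusted p = 3.37e-05).

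Cdc37, a co-chaperone that brings kinases to Hsp90, was higher by 0.35 on the log2 scale, without a call (edgeR, adjusted p = 0.215). The other called chaperones changed less than Hsp83. T-cp1, a subunit of the cytosolic chaperonin, had a log2 fold change of 0.98 by edgeR (adjusted p = 0.0035). Hsc70-4, the constitutive Hsp70, was abundant in both tissues at 4380 and 4519 CPM in female oenocytes and 3649 and 3634 CPM in female fat body. Its log2 fold change was 0.29 (edgeR, adjusted p = 0.0361), and with any 1 of the 4 female libraries left out the adjusted p was 0.130 to 0.151. Hsp70Aa had 4.06 and 6.14 CPM in female oenocytes and 4.63 and 4.56 CPM in female fat body, so that the tissues overlapped. The Hsp70 copies are nearly identical in sequence, and the share of reads given to each is uncertain.

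Outside the lists, ref(2)P and Rad23 were higher in oenocytes, and Rad23 was chosen after its values were seen. The autophagy receptor ref(2)P, the fly p62, had 1286 and 1245 CPM in female oenocytes and 214 and 208 CPM in female fat body (log2 fold change 2.58 ± 0.0561 SE; edgeR, adjusted p = 3.18e-05). Rad23, which shuttles ubiquitinated proteins to the proteasome, had 298 and 333 CPM in female oenocytes and 64.7 and 74.0 CPM in female fat body (log2 fold change 2.19 ± 0.119 SE; edgeR, adjusted p = 0.000249). Both oenocyte libraries lay above both fat body libraries for each gene, but 63.3% of all transcripts tested did not overlap, and ref(2)P was picked among those.

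Several single genes were at a high level in oenocytes and low in fat body. Lectin-galC1, a galactose-binding C-type lectin, had 113 and 110 CPM in female oenocytes, against 1.81 and 1.19 CPM in female fat body (log2 fold change 6.24 ± 0.462 SE; edgeR, adjusted p = 0.000702). Dat, an N-acetyltransferase of dopamine and other amines, had 384 and 384 CPM in female oenocytes, against 11.4 and 12.3 CPM in female fat body (log2 fold change 5.02 ± 0.0899 SE; edgeR, adjusted p = 2.88e-05). ImpL2, a secreted protein that binds insulin-like peptides, had 506 and 563 CPM of its main transcript in female oenocytes and 32.0 and 38.9 CPM in female fat body (log2 fold change 3.91 ± 0.127 SE; edgeR, adjusted p = 5.55e-05). A second ImpL2 transcript moved alike, with a log2 fold change of 4.09. CAH1, a carbonic anhydrase, had 271 and 276 CPM in female oenocytes and 62.7 and 64.8 CPM in female fat body, while beta-CA, of an unrelated carbonic anhydrase family, was lower at 16.8 and 17.8 CPM in female oenocytes and 29.8 and 33.1 CPM in female fat body (log2 fold changes 2.10 and -0.87; edgeR, adjusted p = 5.55e-05 and 0.0051).

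The genes cid, cav and Rpd3 were also higher in oenocytes. The centromeric histone cid had 73.2 and 83.9 CPM in female oenocytes, against 8.25 and 8.41 CPM in female fat body (log2 fold change 3.24 ± 0.137 SE; edgeR, adjusted p = 0.000114). The telomere protein cav had 13.1 and 10.8 CPM in female oenocytes and 0.393 and 0.977 CPM in female fat body (log2 fold change 4.09 ± 0.557 SE; edgeR, adjusted p = 0.00597). Without fat body replicate 1 or 2 the log2 fold change was 3.60 and 4.90. Rpd3, a histone deacetylase, had 67.2 and 66.8 CPM in female oenocytes and 15.5 and 13.5 CPM in female fat body (log2 fold change 2.21 ± 0.123 SE; edgeR, adjusted p = 0.000259). None of the 3 overlapped between the tissues, but cid and cav were picked among transcripts without overlap and Rpd3 after its values were seen. Over all transcripts tested, 63.3% did not overlap. HDAC6, a cytoplasmic deacetylase, went the other way, with 108 and 95.9 CPM in female oenocytes and 518 and 505 CPM in female fat body (log2 fold change -2.33 ± 0.101 SE; edgeR, adjusted p = 0.000118). The 4 tested transcripts of the HP1 family of heterochromatin proteins were not called, at a median log2 fold change of 0.66.

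Of 54 genes with a symbol that could be tested only in the aligned reads per gene, 10 were higher in oenocytes and 13 lower. Over all genes tested in these reads, 13.4% were higher and 15.4% lower. The genes described here were chosen after their values were seen. Fas2, an adhesion molecule of neurons and epithelia, had the largest rise, with 316 and 468 aligned CPM in female oenocytes against 12.5 and 7.51 aligned CPM in female fat body (log2 fold change 5.30 ± 0.403 SE; edgeR, adjusted p = 0.000264). PGRP-LA, of the peptidoglycan recognition family, followed with gene totals of 47.0 and 52.5 TPM in female oenocytes and 2.07 and 1.07 TPM in female fat body (log2 fold change 4.17 in aligned reads; edgeR, adjusted p = 0.00455). This change rested on 15 and 5 reads in female fat body and was 5.40 without fat body replicate 1 and 3.45 without fat body replicate 2. Src64B, a tyrosine kinase, was lower, with 3.58 and 1.23 aligned CPM in female oenocytes and 19.2 and 28.5 in female fat body (log2 fold change -3.23; edgeR, adjusted p = 0.00386). Without oenocyte replicate 1 or 2 its log2 fold change was -4.24 and -2.72. The transcription factor genes Sox102F and ci, both on chromosome 4, were lower at log2 fold changes of -3.16 and -3.07, as was tok, a secreted metalloprotease, at -3.14 (edgeR, adjusted p = 0.000377, 0.00196 and 0.000353). For ci the log2 fold change was -3.77 without oenocyte replicate 1 and -2.63 without oenocyte replicate 2.

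**Figure D2:**
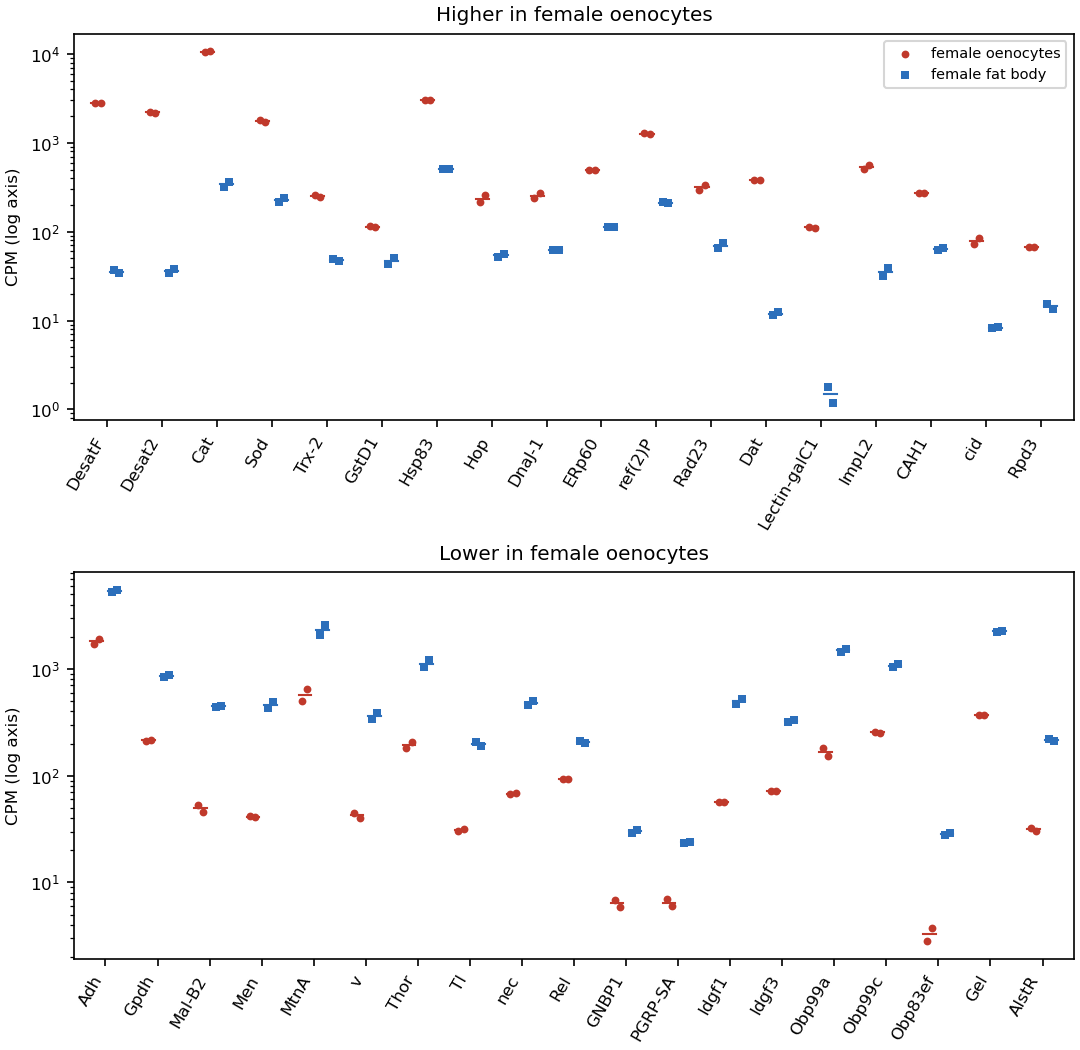
CPM of single libraries (log axis) for genes higher in female oenocytes (upper panel) and lower in female oenocytes (lower panel), with oenocytes as red circles left of fat body as blue squares and a bar at each mean of 2 libraries. The 2 libraries of a tissue lie close together for every gene drawn, for example DesatF at 2809 and 2785 CPM in oenocytes and 36.6 and 34.4 CPM in fat body. The tissues do not overlap for any of them, but many were picked for having no overlap or after their values were seen. Over all transcripts tested, 63.3% did not overlap.

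Transcripts of sugar metabolism were more often lower than higher in oenocytes. Of 14 transcripts of this list tested, 8 were lower, 1 was higher (Pgd, above) and 5 were not called, with a median log2 fold change of -1.74. Gpdh and Men were counted with 2 transcripts each. Over all transcripts, 13.1% were lower and 12.9% higher. Of 3 genes of the list tested in aligned reads alone, Zw (above) was higher, Adhr was lower and Hex-C was not called. Adh, alcohol dehydrogenase, had 1728 and 1902 CPM in female oenocytes, against 5235 and 5502 CPM in female fat body (log2 fold change -1.56 ± 0.0774 SE; edgeR, adjusted p = 0.000179). Adhr lies in the same transcription unit as Adh, and reads may be shared between them. Gpdh, the glycerol-3-phosphate dehydrogenase that supplies the backbone of triglycerides, had 2 transcripts called. Its main transcript had 212 and 216 CPM in female oenocytes and 842 and 878 CPM in female fat body (log2 fold change -2.01 ± 0.0578 SE; edgeR, adjusted p = 4.34e-05), and the other had -1.91. Tpi, triose phosphate isomerase, had 148 and 140 CPM in female oenocytes and 277 and 286 CPM in female fat body (log2 fold change -0.97; edgeR, adjusted p = 0.000443).

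The maltases of the Mal-B pair, which split dietary sugars, were lower in oenocytes. Of 6 transcripts of maltases and amylases tested, these 2 were called and 4 were not, beside 26% called over all transcripts. Mal-B2 had 53.3 and 45.9 CPM in female oenocytes, against 445 and 450 CPM in female fat body (log2 fold change -3.17 ± 0.0926 SE; edgeR, adjusted p = 4.39e-05). Mal-B1 had only 0.353 and 0.537 CPM in female oenocytes and 6.28 and 5.75 CPM in female fat body (log2 fold change -3.74; edgeR, adjusted p = 0.00787), and without fat body replicate 1 its adjusted p was 0.0544. Men, malic enzyme, had transcripts that differed in their change. The lesser one had 41.5 and 40.7 CPM in female oenocytes and 428 and 488 CPM in female fat body (log2 fold change -3.48 ± 0.109 SE; edgeR, adjusted p = 5.11e-05). The major one had 2045 and 2086 CPM in female oenocytes and 2434 and 2595 CPM in female fat body (log2 fold change -0.28; edgeR, adjusted p = 0.0248, or 0.0548 to 0.111 with any 1 of the 4 female libraries left out). In the aligned reads, which count the gene as a whole, Men was not called (log2 fold change 0.18; edgeR, adjusted p = 0.779).

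The transcripts of Crag went opposite ways. Crag encodes an exchange factor for Rab proteins in membrane traffic. The transcript FBtr0356414 had 107 and 107 CPM in female oenocytes and 11.2 and 9.17 CPM in female fat body (log2 fold change 3.40 ± 0.199 SE; edgeR, adjusted p = 0.000313). The transcript FBtr0365036 averaged 9.49 ± 0.55 CPM in female oenocytes, against 59.3 ± 3.75 CPM in female fat body (SD, n = 2 each) (log2 fold change -2.64 ± 0.126 SE; edgeR, adjusted p = 0.00016). In the aligned reads the gene as a whole was higher in oenocytes (log2 fold change 0.95; edgeR, adjusted p = 0.0218). These transcripts were paired with the gene because their TPM added up to the gene's in every library.

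Thor, v and both metallothioneins tested were lower in oenocytes as well. Thor, the translation inhibitor 4E-BP downstream of insulin signalling, had 181 and 206 CPM in female oenocytes, against 1039 and 1205 CPM in female fat body (log2 fold change -2.54 ± 0.132 SE; edgeR, adjusted p = 0.000212). The gene v, the tryptophan dioxygenase of the kynurenine and eye pigment pathway, had 44.8 and 40.1 CPM in female oenocytes and 342 and 385 CPM in female fat body (log2 fold change -3.10 ± 0.102 SE; edgeR, adjusted p = 5.77e-05). MtnA, a metallothionein that binds copper, had 501 and 649 CPM in female oenocytes and 2067 and 2559 CPM in female fat body (log2 fold change -2.01 ± 0.182 SE; edgeR, adjusted p = 0.00143). MtnD, the other metallothionein tested, was lower too (log2 fold change -1.88; edgeR, adjusted p = 0.00474). Over all transcripts, 13.1% were lower, and the list of metallothioneins was made after the data were seen. MtnA and Adh were among the 10 most abundant transcripts of fat body.

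Further genes that were lower in oenocytes have unlike roles, and Gel and Ance among them were chosen after their values were seen. AlstR, a receptor for allatostatin peptides, had 32.7 and 30.5 CPM in female oenocytes, against 221 and 212 CPM in female fat body (log2 fold change -2.78 ± 0.0721 SE; edgeR, adjusted p = 3.93e-05). Gel, the actin-severing gelsolin, had 367 and 372 CPM of its main transcript in female oenocytes and 2231 and 2281 CPM in female fat body (log2 fold change -2.61 ± 0.0544 SE; edgeR, adjusted p = 3.18e-05). Idgf1 and Idgf3, chitinase-like growth factors of the blood, were both lower, as were 13.1% of all transcripts tested. Their list was made after the data were seen. Idgf1 had 56.3 and 56.6 CPM in female oenocytes and 471 and 521 CPM in female fat body, and Idgf3 had 72.2 and 71.8 CPM in female oenocytes and 316 and 329 CPM in female fat body. Their log2 fold changes were -3.14 and -2.16 (edgeR, adjusted p = 3.89e-05 and 4.28e-05). Est-6, a secreted carboxylesterase, Cyp4d2, a cytochrome P450, and Ance, a peptidase like angiotensin-converting enzyme, had log2 fold changes of -1.91, -1.67 and -2.03 (edgeR, adjusted p = 9.94e-05, 0.000698 and 0.000478).

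Immune recognition and signalling was lower in oenocytes wherever it was called in the transcripts. Of 14 transcripts of 13 such genes tested, 8 were lower, none was higher and 6 were not called, with a median log2 fold change of -1.77. Over all transcripts, 13.1% were lower and 12.9% higher. Among receptors, Tl, the Toll receptor, had 30.6 and 31.8 CPM in female oenocytes, against 209 and 191 CPM in female fat body (log2 fold change -2.68 ± 0.0793 SE; edgeR, adjusted p = 4.51e-05). Upstream of it, PGRP-SA and GNBP1, the blood proteins that sense Gram-positive bacteria, had log2 fold changes of -1.87 and -2.24 (edgeR, adjusted p = 0.000802 and 0.000591). The serpin nec, which restrains the pathway, had 67.1 and 68.6 CPM in female oenocytes and 460 and 504 CPM in female fat body (log2 fold change -2.83 ± 0.0712 SE; edgeR, adjusted p = 3.85e-05). The oenocyte libraries were below both fat body libraries for each of these genes, and 63.3% of all transcripts tested did not overlap between the tissues.

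Further down the pathways, Rel, the NF-kappaB factor of the Imd pathway, had 93.2 and 93.5 CPM in female oenocytes, against 212 and 204 CPM in female fat body (log2 fold change -1.16 ± 0.0581 SE; edgeR, adjusted p = 0.000187). PGRP-SB1, a peptidoglycan amidase, had a log2 fold change of -1.31 by edgeR (adjusted p = 0.00423), but of -0.39 in the aligned reads, where it was not called (edgeR, adjusted p = 0.693). PGRP-SD had a log2 fold change of -2.63 by edgeR (adjusted p = 0.0164), and without oenocyte replicate 1 or fat body replicate 2 the adjusted p was 0.0678 and 0.0743. The adaptor imd had a log2 fold change of -0.63 by edgeR (adjusted p = 0.0118), and without oenocyte replicate 2 or either fat body replicate the adjusted p was 0.0593 to 0.0693. A further 8 genes of the list were tested in aligned reads alone, of which 3 were lower, 2 were higher and 3 were not called. Over all genes tested in aligned reads, 15.4% were lower and 13.4% higher. There Dif, an NF-kappaB factor of the Toll pathway, and the thioester proteins Tep2 and Tep4, which mark microbes, were lower, at log2 fold changes of -2.43, -2.35 and -1.80 (edgeR, adjusted p = 0.00141, 0.000662 and 0.00163). PGRP-LA, described above, was higher. So was dl, the other NF-kappaB factor of the Toll pathway, with 17.7 and 31.4 aligned CPM in female oenocytes and 6.65 and 6.91 aligned CPM in female fat body (log2 fold change 1.84; edgeR, adjusted p = 0.0196). Without oenocyte replicate 2 or either fat body replicate, the adjusted p for dl was 0.0887 to 0.0987.

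Antimicrobial peptides were at low levels in both tissues. Of 7 transcripts tested, AttC alone was called, beside 26% of all transcripts tested. It had 4.45 and 5.64 CPM in female oenocytes and 10.5 and 9.12 CPM in female fat body. Its log2 fold change was -0.96 ± 0.231 (SE; edgeR, adjusted p = 0.0399). With any 1 of the 4 female libraries left out, its adjusted p was 0.0655 to 0.161, and without either male fat body library it was 0.0724 and 0.0757. Mtk, metchnikowin, had 0.265 and 0.504 CPM in female oenocytes and 1.49 and 4.72 CPM in female fat body and was not called (edgeR, adjusted p = 0.0529). Small soluble odorant-binding proteins, which occur in blood and fat body as well as in sense organs, were more often lower. Of 48 such genes with a symbol, 13 were tested: 6 were lower, 1 was higher and 6 were not called. Over all transcripts, 13.1% were lower and 12.9% higher.

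Obp99a led this family, with 183 and 154 CPM in female oenocytes, against 1450 and 1528 CPM in female fat body (log2 fold change -3.14 ± 0.103 SE; edgeR, adjusted p = 5.66e-05). Obp99c had 259 and 250 CPM in female oenocytes and 1038 and 1108 CPM in female fat body (log2 fold change -2.08 ± 0.0648 SE; edgeR, adjusted p = 5.10e-05). Both were abundant in fat body, while the rest were low. Obp83ef had 2.82 and 3.73 CPM in female oenocytes and 27.6 and 28.8 CPM in female fat body (log2 fold change -3.10; edgeR, adjusted p = 0.000386). Obp18a, Obp83cd and Obp99b had log2 fold changes of -2.94, -2.42 and -1.05 (edgeR, adjusted p = 9.94e-05, 0.00753 and 0.00912). Obp44a was the exception, with 2.42 and 2.18 CPM in female oenocytes and 0.393 and 0.271 CPM in female fat body. Its log2 fold change was 2.78 (edgeR, adjusted p = 0.0346), and with any 1 of the 4 female libraries left out the adjusted p was 0.0880 to 0.155.

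**Figure D3:**
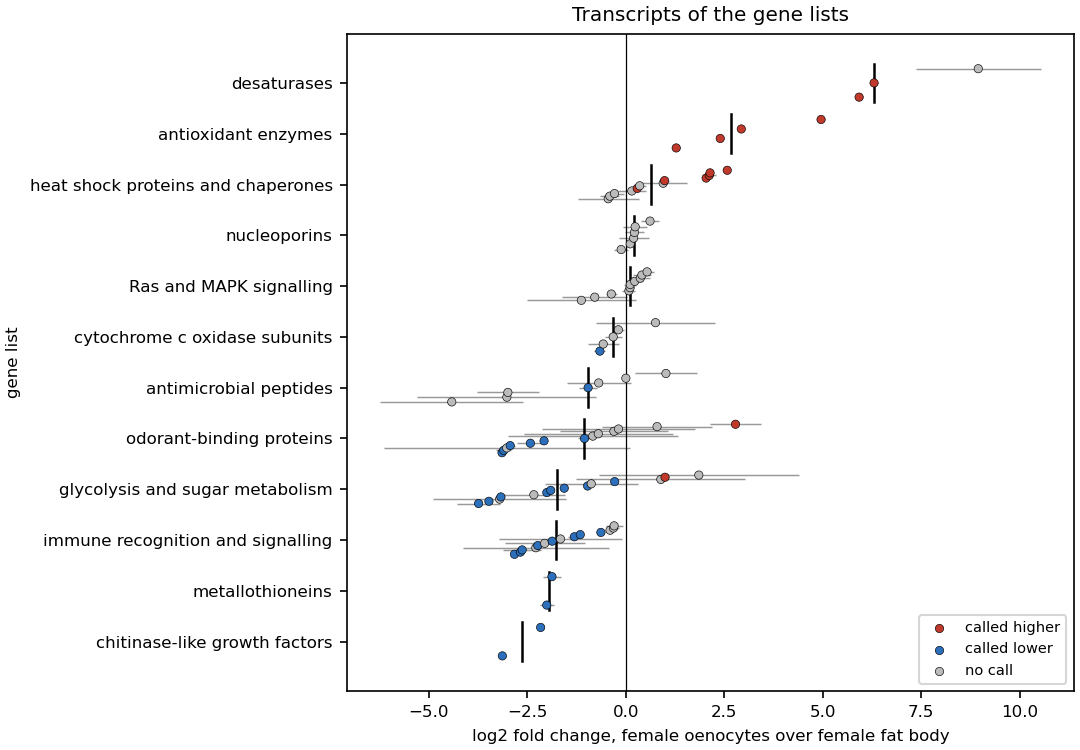
Log2 fold change of female oenocytes over female fat body for each transcript tested in 12 gene lists, as points with standard errors from edgeR, red where called higher, blue where called lower and grey where not called; a black bar marks the median of a list. Antioxidant enzymes lie wholly above 0 with a median of 2.66, and immune recognition and signalling wholly below 0 with a median of -1.77. Several of the lists, antioxidant enzymes among them, were made after the data were seen.

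Several groups of genes gave few or no calls. None of the 6 nucleoporin transcripts was called (median log2 fold change 0.21), and none of the 10 transcripts of Ras and MAPK signalling (median 0.11). Over all transcripts, 26% were called. In the aligned reads, however, 2 further genes of the Ras and MAPK list, Src64B and pnt, were both called lower, as were 15.4% of all genes tested there. Of 5 transcripts of cytochrome c oxidase subunits, CoVa was lower, with 146 and 184 CPM in female oenocytes and 252 and 269 CPM in female fat body. Its log2 fold change was -0.66 (edgeR, adjusted p = 0.0259), and without oenocyte replicate 1 or either fat body replicate the adjusted p was 0.0524 to 0.117. ATPsyn-beta, of the mitochondrial ATP synthase, and sta, a ribosomal protein gene, were lower at log2 fold changes of -0.78 and -1.22 (edgeR, adjusted p = 0.000629 and 0.000212). Of 3 transcripts of small RNA pathways tested, 1 was lower, 1 was higher and Dcr-1, the Dicer of microRNAs, was not called. Dcr-2, the Dicer of RNA interference, was lower at 27.3 and 25.9 CPM in female oenocytes and 49.1 and 47.3 CPM in female fat body (log2 fold change -0.86; edgeR, adjusted p = 0.00401). Its partner r2d2 was higher at 25.0 and 25.8 CPM in female oenocytes and 8.95 and 7.98 CPM in female fat body (log2 fold change 1.58; edgeR, adjusted p = 0.00829, or 0.0598 without fat body replicate 2). In aligned reads, loqs, another Dicer partner, was higher at 39.8 and 46.8 aligned CPM in female oenocytes and 12.9 and 11.7 aligned CPM in female fat body (log2 fold change 1.81; edgeR, adjusted p = 0.00394), and AGO1 and AGO2 were not called.

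The muscle markers that were called were lower in oenocytes. The 4 muscle markers with a symbol summed to 10.1 and 10.2 TPM in female oenocytes, against 30.5 and 35.6 TPM in female fat body. The gene up, a troponin T, had 23.5 and 24.9 aligned CPM in female oenocytes and 76.3 and 84.1 aligned CPM in female fat body (log2 fold change -1.73; edgeR, adjusted p = 0.00578), and it was called under every alternative run on it. Mlc1, a myosin light chain, had 2.56 and 2.72 CPM in female oenocytes and 7.54 and 14.7 CPM in female fat body (log2 fold change -2.07; edgeR, adjusted p = 0.0232). Without either oenocyte library or fat body replicate 2 its log2 fold change was -2.12 to -1.52 and its adjusted p at least 0.0965. A transcript of TpnC47D, a troponin C, had no count in female oenocytes and 0.628 and 1.09 CPM in female fat body (edgeR, adjusted p = 0.0437), and leaving out any 1 library of either tissue except male oenocytes raised the adjusted p above 0.05, to between 0.0767 and 0.156. Act88F, the flight muscle actin, was at 0 to 0.05 TPM. The 2 haemocyte markers summed to 31.7 and 32.9 TPM in female oenocytes and 42.2 and 38.1 TPM in female fat body. The neural marker summed to at most 0.03 TPM and the 4 germline markers to at most 0.5 TPM in any of the 4 libraries, with Cp16, a chorion gene, at 0. The part of other cells in the tissue differences was not tested.

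Of 20 male reproductive genes, 11 were at 0 in all 4 female libraries. The list nevertheless summed to 71.1 and 75.3 TPM in female oenocytes, against 448 and 481 TPM in female fat body. Only 6 of the 20 genes were tested, and over all transcripts tested 26% were called. A single gene was called, Acp54A1, named for the male accessory gland, with 46.7 and 49.2 CPM in female oenocytes and 358 and 420 CPM in female fat body (log2 fold change -3.02 ± 0.123 SE; edgeR, adjusted p = 0.000102). Acp70A, the sex peptide, was at 0.

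Calls were spread over the chromosomes. Among transcripts paired with a gene, 17.5% were higher in oenocytes and 16.3% lower. On the X these shares were 18.1% and 16.7% of 1301 transcripts, and on the arms 2L, 2R, 3L and 3R they were 16.4% to 18.1% and 14.3% to 17.4%. Chromosome 4 had 10 higher and 9 lower of 42. The 75 transcripts placed outside these chromosomes were uneven, with 20 higher and 2 lower and a median log2 fold change of 0.51. Of the 2622 transcripts called whose gene has a value in aligned reads, 2537 (96.8%) had the same direction there, and 1502 were also called there, 1496 of them in the same direction and 6 in the opposite one. Detection in a single tissue was also seen. In female oenocytes, 78 transcripts had at least 50 counts in both libraries and none in female fat body, and 40 transcripts showed the reverse. As the oenocyte libraries were deeper, the same was asked in CPM: 19 transcripts had at least 10 CPM in both oenocyte libraries and under 0.1 CPM in both of fat body, and 11 showed the reverse. None of these has a symbol.

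Most transcripts called in males were also called in females. Of the 3060 transcripts (21.4%) called between male oenocytes and male fat body, 2613 were also called in females, which is 70.4% of the female calls and 85.4% of the male ones. Of these, 2576 had the same direction and 37 the opposite. The difference between the sexes was itself called for 370 transcripts (2.59%), 13 of them with a symbol. For DesatF the log2 fold change was 6.30 among females and 5.42 among males, and the levels were 2797 CPM in female and 151 CPM in male oenocytes, the mean of 2 libraries and the summed male sample. Desat2 and Cat had log2 fold changes of 5.66 and 4.41 in males, and their difference between the sexes was not called. Yp2 had a log2 fold change of 0.22 in males, where it was not called (edgeR, adjusted p = 0.732). The difference between the sexes was not called for Yp2 either.

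**Figure D4:**
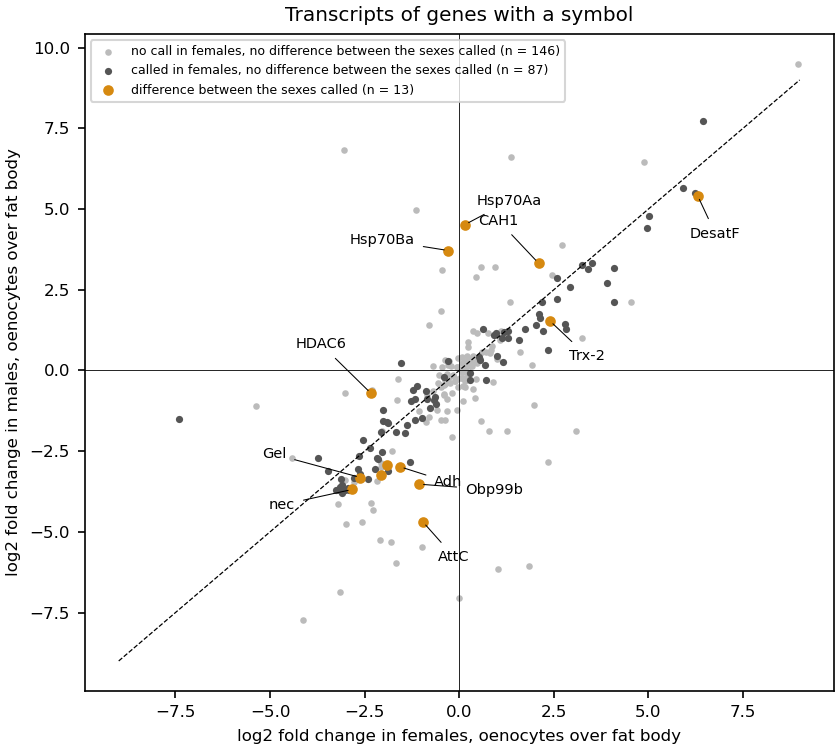
Log2 fold change of oenocytes over fat body in females (horizontal axis) and in males (vertical axis) for the 246 transcripts of genes with a symbol; the dashed line marks equal values. Orange points are the 13 transcripts whose difference between the sexes was called, among them Hsp70Aa and Hsp70Ba far above the line and AttC below it.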

How the data were processed

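RNA was sequenced from 2 libraries each of oenocytes and fat body of female and of male hybrids. The submitters' processing notes name kallisto 0.44.0 and STAR 2.5.1b; the genome build, strand setting and filters are not given in the sources used here. Per the file headers, the deposited tables of each library hold kallisto's estimated counts and TPM for a copy of each transcript from each species. The deposited series tables give TPM per transcript and per gene. The deposited allele tables give read counts per gene in classes of allele, which were summed into aligned reads per gene.

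Estimated counts of the copies from both species were summed per transcript and rounded. They were tested with edgeR 4.0.16 in R 4.3.3, using filterByExpr, TMM factors and the functions glmQLFit and glmQLFTest. The design had 1 term per group, with a call at a Benjamini-Hochberg adjusted p under 0.05 over all transcripts. The male oenocyte libraries differed least from each other (chi-square per transcript with a median of 0.916 and a mean of 7.54; the other groups had medians of 2.42 to 5.46 and means of 15.6 to 30.9). They were summed as 1 sample, though on average they differed by more than sampling noise. With 7 samples the fit has 3 residual degrees of freedom. It assumes that the single male oenocyte sample varies like those of the other groups; a fit with all 8 libraries apart is an alternative. CPM are counts scaled to the library size times its TMM factor. SE was back-calculated from edgeR's F statistic.

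Transcripts were named by a gene where its TPM equalled the TPM of 1 transcript (7120 genes) or the sum of 2 (740) or 3 (35) in every library of the series tables; named transcripts held 85.3% of counts. No sequences or gene coordinates were used. Members and lists were chosen with earlier results of these data known, and 18 lists were added after the files were seen. Genes were picked from the members of a list and from the 10 most abundant transcripts of a tissue. They were also picked from the 15 largest called changes in each direction among genes with a symbol at 10 CPM or more without overlap. Not every gene that met these rules is described, and kappaB-Ras, Hf and nvd are among those left out. Rad23, Rpd3, HDAC6, Gel, Ance and genes seen only in aligned reads were chosen after their values were seen. Alternatives were other scaling factors, no filter, DESeq2 1.42.0, limma 3.58.1 on log2(TPM + 1) and log2(TPM + 0.1), fits of other sets of libraries, a replicate block, summed isoforms and aligned reads.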

Additional observations from a re-analysis of the deposited data

Results flagged for a closer look

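For 13 transcripts of genes with a symbol, the difference between oenocytes and fat body itself differed between females and males (interaction in the same edgeR fit, adjusted p under 0.05). The values given are the female log2 fold change of oenocytes over fat body minus the male one, so a positive value can also stand for a smaller fall in females. The lone male oenocyte sample enters each of them. Groups of 2 libraries are too small for a search for outlying libraries.

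The stress-inducible Hsp70 genes had the largest negative values, -4.37 for Hsp70Aa and -4.005 for Hsp70Ba (edgeR, adjusted p = 0.0378 and 0.0275). In females they were not called, at log2 fold changes of 0.15 for Hsp70Aa and -0.29 for Hsp70Ba. In males they were higher in oenocytes, with log2 fold changes of 4.52 and 3.72. HDAC6 had -1.62, with a fall of oenocytes in both sexes that was deeper in females (log2 fold change -2.33 among females and -0.71 among males). CAH1 had -1.22, since its log2 fold change was 2.10 in females and 3.32 in males.

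AttC had the largest positive value, 3.73 (edgeR, adjusted p = 0.0300), its log2 fold change being -0.96 among females and -4.69 among males. Its levels were low in both sexes, at 5.05 CPM in female oenocytes and 0.764 CPM in male oenocytes. Obp99b had 2.47, Adh 1.42, Obp99c 1.15, Est-6 1.01, nec 0.86 and Gel 0.71, all of them genes that were lower in oenocytes in both sexes and fell further in males. DesatF with 0.88 and Trx-2 with 0.86 were higher in oenocytes in both sexes, by more in females.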

How the results depend on the processing

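The values followed under the alternatives include genes not described above: kappaB-Ras, Hf, 18w, plexA, mth, mira and Fur2, which kept their calls throughout. Of 96 followed values called, 96 kept their direction under every alternative that could be fitted for them, and 74 also stayed called under each. The 22 others lost the call under at least 1 alternative. Those lost when a library was left out are given with the genes. T-cp1, Dcr-2, r2d2, Hsc70-4, Mal-B1, Est-6, PGRP-SB1, imd, AttC, Obp99b, Obp83cd, Obp18a, Obp44a, sta and CoVa lost it in the aligned reads, which are fewer and count isoforms together. Hsc70-4 also lost it with DESeq2's or upper-quartile scaling factors, and a minor transcript of Gel (log2 fold change -1.44) lost it without any 1 of the 4 female libraries (adjusted p in edgeR 0.0651 to 0.104). Another 4 results that were not called became so under some alternatives: the second Desat2 transcript and Mtk under 9 each, the minor Mal-B2 transcript under 4 and the other TpnC47D transcript under 3. Signs changed in 2 uncalled results: the minor transcript of Tpi had -4.12 to 6.07 without 1 of the libraries, and Hsp70Aa had -0.25 in aligned reads and -0.18 to 0.37 without 1 of the libraries.

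The count of 3713 calls became 2136 in aligned reads per gene, where 7415 genes were tested, 992 higher and 1144 lower. Leaving out 1 of the 8 libraries gave 2654 to 3742 calls, 1227 to 1848 higher and 1369 to 1899 lower. Calls higher in oenocytes numbered 3015 and 2907 with limma on log2(TPM + 1) and log2(TPM + 0.1). Calls lower in oenocytes numbered 2857 with DESeq2. The cause was not tested. Replicate numbers are shared between groups, but the labels do not say what a number marks. Same-numbered female libraries deviated together only weakly (r = 0.0489), so no pairing was assumed. With the replicate block there were 4185 calls over all 8 libraries and 2730 in the 4 female libraries alone. Of the followed values called, none was lost with the block over 8 libraries. With the block in the female libraries alone 8 were lost: PGRP-SB1, imd, AttC, Obp99b, Obp83cd, Obp44a, Mlc1 and TpnC47D (adjusted p in edgeR 0.0517 to 0.228). The fit of the 4 female libraries with the block and the summing of isoforms (3802 calls) were chosen after seeing the data. Sums of isoforms gave no value for the single transcripts of genes with several. With 2 libraries a tissue, small changes and transcripts at a few counts could not be resolved.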
